A study of Arabidopsis thaliana with 12 samples.

Results

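The comparison of glucose (Glc) with its xylose (Xyl) control rests on 6 of the 12 arrays of the series: 3 of cells given 1 mM Glc for 1 h and 3 of cells given 1 mM Xyl for the same time. The members were taken by the sugar in the sample labels, and the Glc and Xyl arrays with the same replicate number were treated as a pair. All cells were *Arabidopsis thaliana* suspension cells of a habituated, root-derived line, which grows without added hormones and is described in the labels and methods as stem-cell-like. They had grown for 7 d in the dark on Murashige and Skoog medium with 87 mM Xyl as the only carbon source, so that the control flasks received more of the sugar that the cells were already using. Fructose (Fru) and sucrose (Suc), 3 arrays each, were the other additions. The methods describe homogeneous cell suspensions that were shared out between flasks before treatment and call the arrays biological replicates, without saying which flasks shared a culture. A single cultured line in the dark limits the groups as a model of plant tissue, and in bulk RNA fewer cells of a type and less RNA per cell cannot be told apart.

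Plant cells read Glc both as fuel and as a signal. Hexokinase, which phosphorylates Glc, also acts as a sensor, and the kinase complexes SnRK1 and TOR work in opposite directions, SnRK1 being active when carbon is short and TOR when carbon and nutrients are plentiful. Xyl is a pentose that enters metabolism through xylulose and the pentose phosphate pathway.

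Each array gives a level, the log2 RMA value, for a probe set, which is a group of short probes for the 3′ part of a transcript. The array carries 22810 probe sets, of which 64 controls were left out and 22746 were tested. In *A. thaliana* 13642 of the probe sets could be given 1 gene name, so gene groups are described by the members that could be named. Array medians lay between 4.76 and 4.83. The first principal component of the 6 arrays held 71.2% of the variance and set both replicate 3 arrays (69.9 with Glc and 64.6 with Xyl) apart from the other 4 (−43.9 to −23.2), whichever sugar was given. The third held 5.51% and separated the sugars, with scores of 7.45, 8.85 and 19.96 in the Glc arrays and −10.24, −5.64 and −20.36 in the Xyl arrays, so that the replicate 3 pair was the widest apart. Of the 25 green leaf marker genes 4 could be named on the array, with mean levels of 3.02 to 7.37 with Glc and 3.04 to 7.74 with Xyl, and 2 of 7 root hair genes, *EXPA7* and *EXPA18*, were at 2.98 and 3.45 with Glc and 2.87 and 3.66 with Xyl. The root stem cell and xylem marker genes had no named probe set, so the label stem-cell-like could not be checked on the arrays.

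At the study's threshold, an unadjusted p under 0.002, 283 probe sets differed between Glc and Xyl in limma with the replicate number as a block, 1.24% of all tested. Glc raised 125 (0.55% of all) and lowered 158 (0.695%). After Benjamini-Hochberg adjustment over all 22746 the smallest limma p was 0.057, so 0 probe sets (0%) passed 0.05, while 67 were under 0.1 (0.295%) and 2679 had an unadjusted p under 0.05. With no block, 10 were called (0.044%), 4 higher and 6 lower. "Called", "rose" and "fell" below refer to the threshold of 0.002 with the block, and each adjusted p is the one from that limma fit over all probe sets. The count depended on single libraries: it was 96 without replicate 1, 138 without replicate 2, 301 without replicate 3, 142 without the Xyl array of replicate 3 and 182 without the Xyl array of replicate 2.

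The changes were small. The median size of a called difference was 0.53 (log2) for the rises and 0.49 for the falls, where a difference of 1 is a 2-fold change. Among the rises 10 were at least 1, among the falls 7, and the median standard error over all probe sets was 0.11. Every one of the 283 moved the same way in the 3 pairs, against 31.4% of all probe sets, a share that a paired test itself favours. In 90 of them the 3 Glc arrays lay fully apart from the 3 Xyl arrays, against 6.26% of all. Choosing probe sets by their difference on these arrays favours this too, so a lack of overlap below is a description. The median of the 125 rises was 0.51, 0.45 and 0.58 in pairs 1, 2 and 3, and that of the 158 falls −0.47, −0.45 and −0.53, so that the third pair was the widest in both directions. The share called was lowest, 0.31%, among the 9364 probe sets with a mean level under 4 and lay between 1.48% and 2.15% in the 4 brighter classes. The median difference over all probe sets was 0.01.

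**Figure D1:**
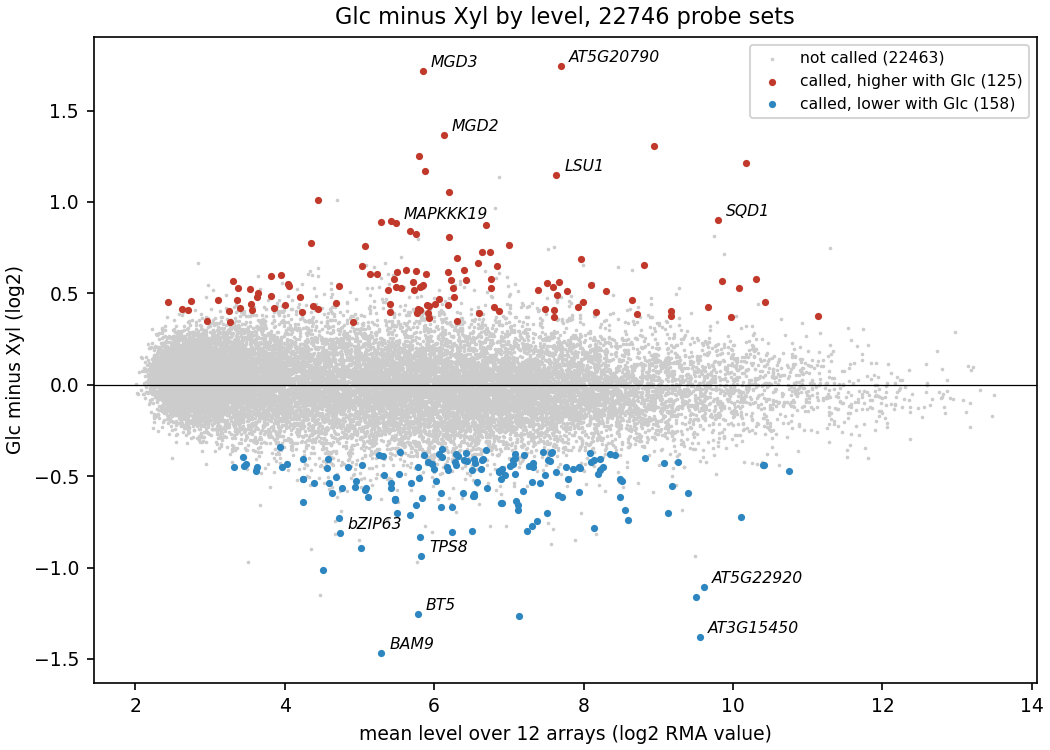
Difference between Glc and Xyl (log2, vertical axis) against the mean level over 12 arrays (log2 RMA value, horizontal axis) for 22746 probe sets, with the 125 called rises in red, the 158 called falls in blue and the rest in grey. The called probe sets lie at all levels above about 2 and the 12 genes named on the plot include the largest changes in both directions.

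Of the called probe sets, 204 could be given 1 gene (101 higher, 103 lower) and 79 could not. The authors' published gene list, which was selected on these same arrays, holds 117 of the 204, so it is no independent evidence of their direction. It was also the only source of a name for 129 probe sets, 55 of them called. A gene that responded was therefore more likely to be named here than one that did not, and a count over a gene list that holds such probe sets is given with their number, as a description. Of the 53 called probe sets named by the rule for named genes, 11 stayed called when each single array of the 6 and each replicate number was left out in turn, and 18 stayed called in 7 or 8 of these 9 fits. Without the block 7 of the 53 were called: *bZIP63*, *CCL*, *PKDM7D*, AT3G15450, AT3G25400, AT1G10350 and AT1G29450. The 11 are described first, and of these *bZIP63* and AT3G25400 were called without the block and the other 9 were not.

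*bZIP63* (AT5G28770, listed as BZO2H3), a group C bZIP transcription factor and a target of SnRK1, showed the most even fall. Its level was 4.29, 4.50 and 4.66 with Glc in replicates 1, 2 and 3, and 5.10, 5.32 and 5.46 with Xyl. All 3 Glc arrays lay below all 3 Xyl arrays, and the difference was −0.81, −0.82 and −0.81 in the 3 pairs. The fit gave −0.81 ± 0.12 (SE), a 1.76-fold fall (adjusted p = 0.057).

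AT5G22920, which encodes a zinc finger protein with a RING domain and is used as a marker of low carbon, fell 2.15-fold. Its level was 8.78, 9.35 and 9.55 with Glc and 9.86, 10.28 and 10.86 with Xyl. The groups did not overlap and the difference was −1.11 ± 0.18 (adjusted p = 0.061).

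*WRKY22* (AT4G01250), a transcription factor of the immune and submergence responses, was at 5.71, 5.54 and 6.23 with Glc and 6.28, 6.12 and 7.09 with Xyl. The groups overlapped because replicate 3 was high with both sugars, while each pair fell, by 0.57, 0.58 and 0.86. The difference was −0.67 ± 0.10 (adjusted p = 0.057). *BTS* (AT3G18290), which encodes BRUTUS, an E3 ubiquitin ligase of the iron deficiency response, was at 5.05, 5.53 and 5.46 with Glc and 5.74, 6.49 and 5.94 with Xyl. Its groups did not overlap and it fell 1.64-fold (−0.71 ± 0.11, adjusted p = 0.057).

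Among the rises, AT5G43150, a gene of unknown function, was at 7.18, 5.85 and 6.94 with Glc and 6.22, 5.26 and 5.33 with Xyl. Each pair rose but replicate 2 with Glc lay below replicate 1 with Xyl. The difference of 1.05 ± 0.15 is a 2.08-fold rise (adjusted p = 0.057). *MAPKKK19* (AT5G67080), which encodes a MAP kinase kinase kinase, was at 6.37, 5.72 and 5.29 with Glc and 5.49, 5.09 and 4.14 with Xyl, 0.89 ± 0.13 higher (adjusted p = 0.057).

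AT3G57540 encodes a remorin, a protein of membrane domains. It was at 5.97, 5.65 and 5.93 with Glc and 5.03, 4.59 and 5.26 with Xyl, without overlap, a 1.85-fold rise (0.89 ± 0.14, adjusted p = 0.057). AT2G22080 rose 1.75-fold (6.79, 5.97 and 6.93 with Glc against 6.18, 5.26 and 5.82 with Xyl, adjusted p = 0.057). AT4G25150, an acid phosphatase of the HAD family, was 0.76 ± 0.12 higher with Glc (adjusted p = 0.057), at 5.68, 5.44 and 5.14 against 5.17, 4.65 and 4.17 with Xyl. The AT3G25400 level, of a gene related to nucleotide pyrophosphatases, was 5.87, 5.51 and 5.78 with Glc and 5.11, 4.99 and 5.21 with Xyl, and its groups did not overlap (0.62 ± 0.11, adjusted p = 0.077).

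AT5G04080 shows most plainly why the pairs matter. Its level was 10.37, 6.19 and 8.43 with Glc and 9.65, 5.62 and 7.66 with Xyl, so that the replicates of 1 sugar differed far more than the sugars did. Within the pairs the difference was 0.71, 0.58 and 0.77, or 0.69 ± 0.10 in the fit (adjusted p = 0.057). The gene encodes a small cysteine-rich protein.

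**Figure D2:**
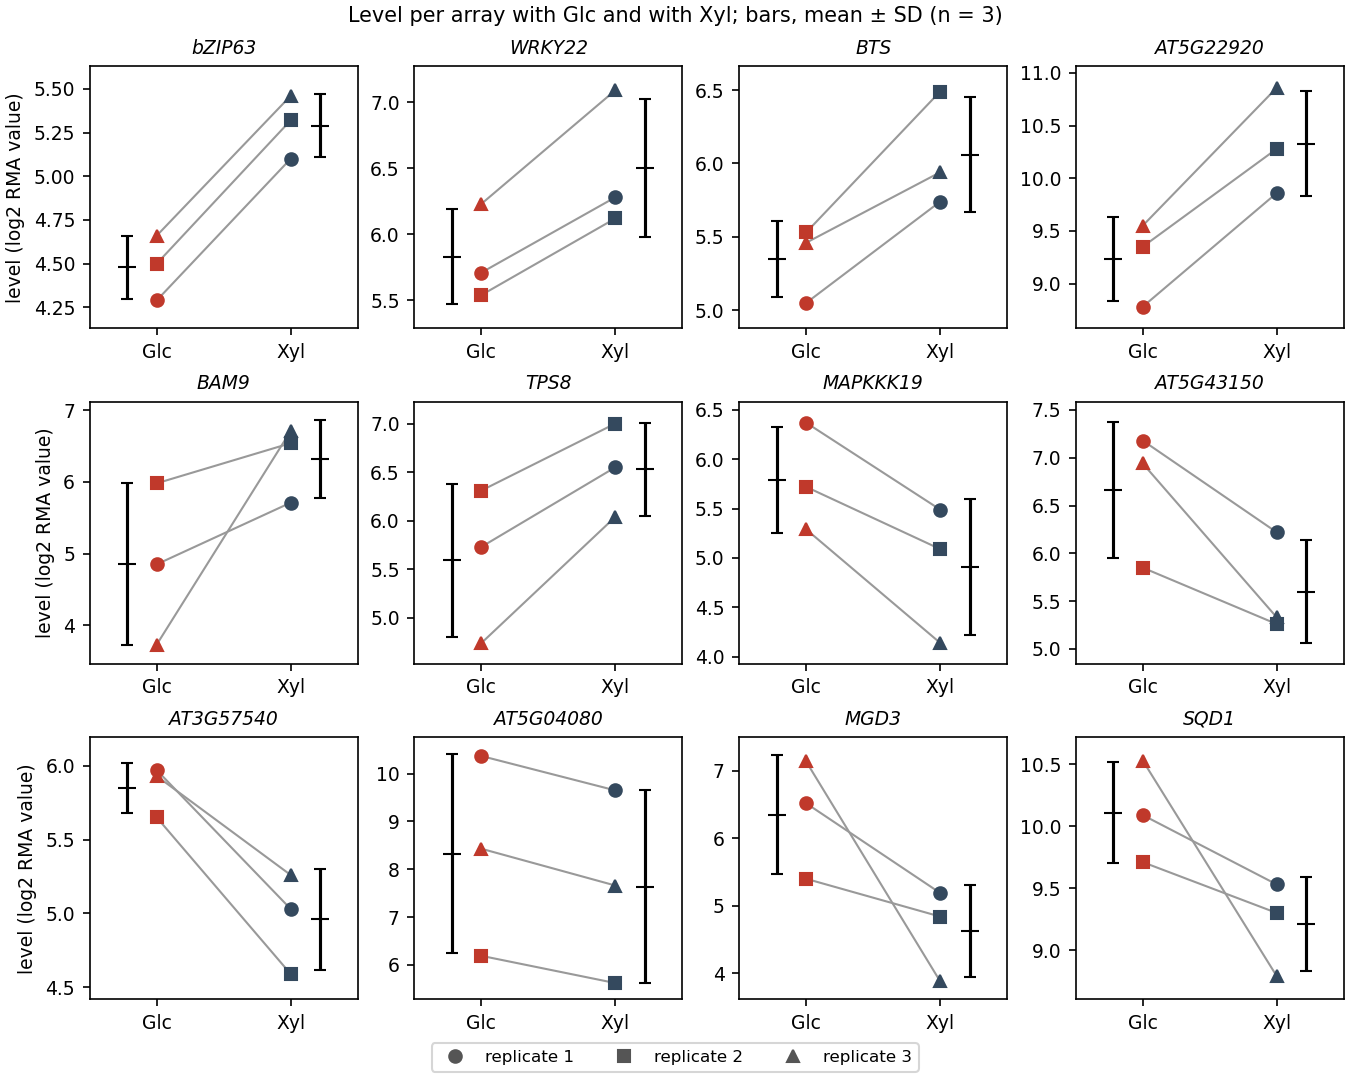
Level (log2 RMA value, vertical axes of differing range) of 12 genes on each array, Glc in red at the left and Xyl in dark grey at the right of each panel, with lines joining the arrays of 1 replicate number (circle 1, square 2, triangle 3) and bars giving the mean ± SD (n = 3). The lines of *bZIP63* run parallel at −0.81 to −0.82, whereas those of *BAM9*, *MGD3* and *SQD1* are steepest in replicate 3, at −2.99, 3.26 and 1.74.

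The falls of the largest size included *BAM9*, AT3G15450 and *BT5*, which were widest in replicate 3. *BAM9* (AT5G18670, listed as BMY3), a β-amylase-like protein without known catalytic activity, was at 4.85, 5.98 and 3.73 with Glc and 5.71, 6.54 and 6.71 with Xyl. The groups overlapped and the 3 pairs differed by −0.86, −0.56 and −2.99, which gave −1.47 ± 0.34, a 2.77-fold fall (adjusted p = 0.13). Without replicate 3 the difference was −0.71 and without the Xyl array of replicate 3 it was −0.89, neither of them called.

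AT3G15450, an aluminium-induced family protein that marks low carbon, was at 9.16, 9.31 and 8.56 with Glc and 10.03, 10.26 and 10.89 with Xyl. Its groups did not overlap and it fell 2.60-fold (−1.38 ± 0.28, adjusted p = 0.096), or by 0.90 without replicate 3 (not called). AT5G01210, of the HXXXD acyltransferase family, was at 6.24, 7.28 and 6.51 with Glc and 7.44, 7.86 and 8.52 with Xyl. The groups did not overlap, and it fell 2.40-fold (−1.26 ± 0.23, adjusted p = 0.077), or by 0.89 without replicate 3, the only 1 of the 9 fits in which it was not called. *BT5* (AT4G37610), of the BTB and TAZ domain family, fell by 0.27, 1.20 and 2.30 in the 3 pairs (6.20, 5.37 and 4.65 with Glc, 6.47, 6.57 and 6.95 with Xyl, adjusted p = 0.13). It was called in 3 of the 9 fits that left out arrays, and its difference was −0.74 without replicate 3.

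Of the 22 low-carbon marker genes listed, 6 had a named probe set, of which 3 fell, 0 rose and 3 were not called, where 0.695% of all probe sets fell. *BT5*, AT5G22920 and AT3G59940 had their names only from the published list, so the count is partly fixed by how they came to be measured. Of the 3 genes named by the platform AT3G15450 fell, while *AKINBETA1*, a regulatory β subunit of SnRK1, was at −0.78 ± 0.21 (adjusted p = 0.18) and *D2HGDH*, a mitochondrial dehydrogenase, at 0.02. AT3G59940, a Kelch repeat F-box gene, was at −0.54 ± 0.17 (adjusted p = 0.23). Without the Xyl array of replicate 3, and likewise without the block, 1 of the 6 was called.

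*TPS8* (AT1G70290), a class II trehalose phosphate synthase, was at 5.73, 6.31 and 4.74 with Glc and 6.55, 7.00 and 6.04 with Xyl. Each pair fell, most in replicate 3, although replicate 2 with Glc lay above replicate 3 with Xyl, and the difference was −0.94 ± 0.16 (adjusted p = 0.077). *TPS9*, the other of the 2 measured members out of 7, both named only through the published list, was at −0.37 ± 0.13 and was not called (adjusted p = 0.28). Of the 9 bZIP genes of groups C and S1, 3 were measured: beside *bZIP63*, *bZIP53* was at −0.49 ± 0.14 (adjusted p = 0.18) and *bZIP44* at 0.03.

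*TOR* (AT1G50030), the kinase of the growth-promoting complex itself, fell 1.59-fold. It was at 5.58, 6.11 and 5.67 with Glc and 6.09, 6.68 and 6.60 with Xyl, which overlap narrowly, and the difference was −0.67 ± 0.12 (adjusted p = 0.077). Of the 14 genes listed for TOR and SnRK1, 6 were measured and *TOR* alone was called, the 1 member named only through the published list, where 1.24% of all probe sets were called. Without replicate 3 *TOR* was at −0.54 and was not called. *RAPTOR1* and *RAPTOR2*, which encode the substrate-binding partner of TOR, were at −0.32 ± 0.13 and −0.47 ± 0.16 (adjusted p = 0.36 and adjusted p = 0.28), not called. The next gene on the chromosome, AT1G50040, also fell, by 0.63.

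None of the measured genes for the use of the hexose was called, where 1.24% of all probe sets were, so that few or no calls among so few probe sets say little about these genes. Most of the genes listed had no named probe set and could not be examined. None of the 6 measured genes for hexose phosphorylation and sensing (15 listed) was called, with a median of −0.07, and none of 5 sugar transporters (23 listed), of 12 probe sets for glycolysis (34 genes listed, median −0.05) or of 5 genes for Xyl use and the pentose phosphate pathway (17 listed, median −0.10). The fructokinase-family gene AT1G06020 was at 0.26 ± 0.13 and the fructokinase gene AT5G51830 at 0.23 ± 0.10 (adjusted p = 0.44 and adjusted p = 0.41). Among the glycolytic genes the farthest from 0 was AT1G76550, a subunit of the pyrophosphate-dependent phosphofructokinase, at −0.19 ± 0.09 (adjusted p = 0.44). AT5G57655, a xylose isomerase, was at −0.10 ± 0.17. The smallest called difference of any probe set was 0.34, so no change below that size was called with 3 arrays a sugar. Genes with a larger standard error, such as AT5G57655 at 0.17, would need a larger difference to be called.

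Several rises were of genes known from phosphate shortage, in which plants replace phospholipids with galactolipids and sulfolipids and release phosphatases. *MGD3* (AT2G11810, listed as MGDC), a monogalactosyldiacylglycerol synthase, was at 6.52, 5.40 and 7.14 with Glc and 5.19, 4.84 and 3.88 with Xyl. All Glc arrays lay above all Xyl arrays, and the pairs differed by 1.33, 0.56 and 3.26. The difference of 1.72 ± 0.37 is a 3.29-fold rise (adjusted p = 0.11), and it was 0.95 without replicate 3, still called, and 1.39 without the Xyl array of replicate 3, not called.

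*MGD2* (AT5G20410), its close relative, was at 6.85, 5.63 and 7.24 with Glc and 5.81, 5.18 and 4.63 with Xyl. The groups overlapped, and the rise of 1.37 ± 0.30 (adjusted p = 0.12) was 0.74 without replicate 3 and 1.08, not called, without the Xyl array of replicate 3. *SQD1* (AT4G33030), which makes the sulfolipid head group, was at 10.09, 9.71 and 10.53 with Glc and 9.53, 9.30 and 8.79 with Xyl. Its groups did not overlap, with 0.90 ± 0.20 (adjusted p = 0.12), 0.48 without replicate 3 and 0.67 without the Xyl array of replicate 3, both not called.

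*PS2* (AT1G73010), a phosphatase induced by phosphate shortage, was at 10.76, 9.25 and 11.29 with Glc and 9.93, 8.90 and 8.84 with Xyl, a rise of 1.21 ± 0.31 (adjusted p = 0.15) with overlapping groups that was 0.59, not called, without replicate 3. It was called in 3 of the 9 fits that left out arrays. *PAP17* (AT3G17790), a purple acid phosphatase, rose by 0.58 ± 0.12 (adjusted p = 0.11), with 10.52, 10.01 and 10.96 with Glc against 10.13, 9.51 and 10.11 with Xyl. It was called in 4 of the 9 fits that left out arrays.

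Of 17 genes listed for low phosphate 8 had a named probe set, of which 5 rose, 0 fell and 3 were not called, where 0.55% of all probe sets rose. All 8 had their names only from the published list chosen on these arrays, which holds genes selected for a response to any of the 3 sugars, and the 9 other genes listed had no named probe set, so the count says nothing about the list as a whole. The 3 were *SRG3*, a glycerophosphodiester phosphodiesterase, at 0.72 ± 0.21 (adjusted p = 0.21), *G3Pp1*, a glycerol-3-phosphate permease, at 0.47 ± 0.13 (adjusted p = 0.18), and *PHT1;4*, a phosphate transporter, at 0.43 ± 0.17 (adjusted p = 0.34). Of the 8 genes 0 were called without the Xyl array of replicate 3, 1 without replicate 1, 2 without replicate 3, 3 without the Xyl array of replicate 2 and 0 without the block.

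AT5G20790, a gene of unknown function, had the largest rise of any named gene. It was at 7.99, 7.23 and 9.30 with Glc and 7.06, 6.23 and 5.99 with Xyl, without overlap, a 3.35-fold rise (1.74 ± 0.39, adjusted p = 0.12) that was 0.96 without replicate 3 and 1.43, not called, without the Xyl array of replicate 3. AT3G44510, an α/β hydrolase, rose on both of its probe sets, by 1.25 ± 0.27 and 1.01 ± 0.23 (adjusted p = 0.12 and adjusted p = 0.13). Without the Glc array of replicate 3 these were 0.75 and 0.61, and without the Xyl array of either replicate 2 or replicate 3 neither was called. *LSU1* (AT3G49580), a small protein induced by sulfur shortage, went against the pattern of replicates, with pairs 1.70, 1.34 and 0.40 apart: it was at 8.74, 7.92 and 7.57 with Glc and 7.03, 6.58 and 7.17 with Xyl, without overlap, 1.15 ± 0.26 higher (adjusted p = 0.13). It was called in 3 of the 9 fits that left out arrays and was at 0.87 without replicate 1, not called.

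**Figure D3:**
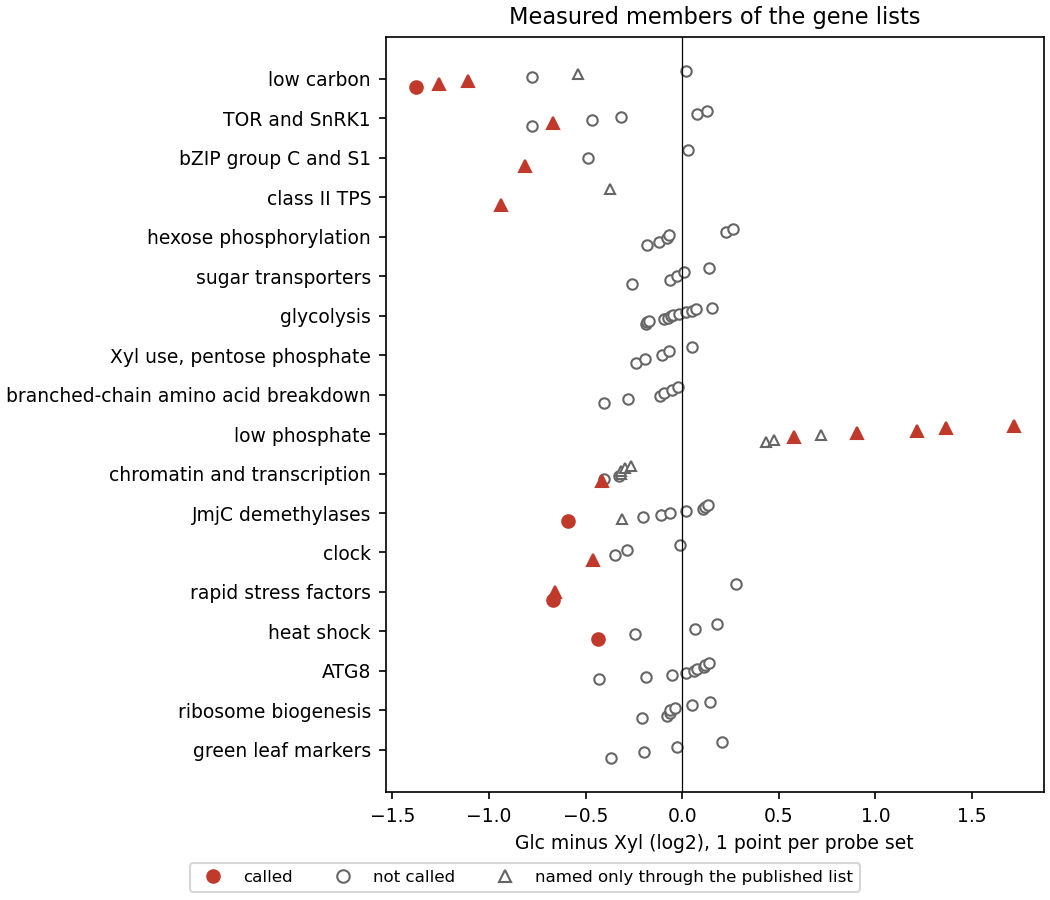
Difference between Glc and Xyl (log2, horizontal axis) of the measured probe sets of 18 gene lists, 1 row per list, with called probe sets filled in red and others open. Circles are probe sets named by the platform and triangles those named only through the published list chosen on these arrays, which include all 8 of the low-phosphate list, 3 of 6 of the low-carbon list and none of the lists for hexose phosphorylation, sugar transporters and glycolysis, so rows are not to be ranked against each other.

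Other genes named by the rule also fell. *PEN3* (AT1G59870), an ABC transporter of the plasma membrane, was at 8.54, 8.25 and 8.08 with Glc and 9.34, 8.87 and 8.89 with Xyl, without overlap (−0.74 ± 0.14, adjusted p = 0.082). *CSLC04* (AT3G28180), a glucan synthase that makes the backbone of xyloglucan, fell by 0.71, 0.66 and 0.74 in the 3 pairs (−0.70 ± 0.16, adjusted p = 0.12), and *XTH30* (AT1G32170), a xyloglucan endotransglucosylase, by 0.56, 0.29 and 0.99 (−0.61 ± 0.13, adjusted p = 0.11). In all 3 genes the Glc arrays lay below the Xyl arrays, and *PEN3* was called in 8, *XTH30* in 5 and *CSLC04* in 3 of the 9 fits that left out arrays. *CCL* (AT3G26740), whose transcript has a light-regulated rhythm and is unstable, was at 4.43, 4.92 and 4.45 with Glc and 5.38, 5.33 and 5.76 with Xyl, a difference of −0.89 ± 0.17 (adjusted p = 0.082).

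*PKDM7D* (AT1G08620) encodes a histone demethylase with a JmjC domain. It had tight replicates, 5.83, 5.75 and 5.92 with Glc and 6.37, 6.48 and 6.42 with Xyl, and fell 1.51-fold (−0.59 ± 0.09, adjusted p = 0.057). Of 18 JmjC genes listed, 9 were measured and none of the other 8 was called, where 1.24% of all probe sets were, the next being *ELF6* at −0.31 ± 0.10 (adjusted p = 0.26). Among 22 genes listed for chromatin and transcription, 7 were measured, 5 of them named only through the published list, which holds 6 of the 7, so that their shared sign is no independent evidence. They lay between −0.41 and −0.27, with *SYD* (AT2G28290), a chromatin remodelling ATPase, the one called, at −0.41 ± 0.10 (adjusted p = 0.13) and in 3 of the 9 fits that left out arrays.

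*UPL3* (AT4G38600, listed as KAK), a HECT ubiquitin ligase, was called at −0.46 ± 0.12 (adjusted p = 0.15), with 7.71, 7.80 and 7.52 with Glc below 8.12, 8.25 and 8.05 with Xyl, but in none of the 9 fits that left out arrays. The other measured HECT gene, *UPL5*, was at −0.34 ± 0.09 (adjusted p = 0.18). *ELF3* (AT2G25930), a component of the circadian clock, fell by 0.51, 0.46 and 0.42 in the pairs (−0.46 ± 0.11, adjusted p = 0.15) and was called in 2 of the 9 fits, while *GI*, another clock gene, was at −0.29 ± 0.11 (adjusted p = 0.34). *ERF104* (AT5G61600), an ethylene response factor of rapid stress responses, fell by 0.24, 0.59 and 1.14 (−0.66 ± 0.15, adjusted p = 0.13) and was called in 3 of the 9 fits. The zinc finger gene *STZ* of the same list was at 0.28 ± 0.11 (adjusted p = 0.35). *NAC047* (AT3G04070), a NAC transcription factor, fell by 0.68, 0.37 and 1.26 (−0.77 ± 0.16, adjusted p = 0.096), called in 4 of the 9.

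Several groups held at most 1 called member. All 9 *ATG8* genes, whose products build autophagosomes, were measured and none was called, where 1.24% of all probe sets were. Their median was 0.06 and *ATG8E* lay farthest from 0, at −0.43 ± 0.20 (adjusted p = 0.41). Of 22 genes for ribosome biogenesis 7 were measured, with a median of −0.07. Of 12 genes for the breakdown of branched-chain amino acids 6 were measured and 0 were called. All 6 lay below 0 in the fit, but their median was −0.39, −0.14 and 0.05 in pairs 1, 2 and 3. *MCCA* was at −0.40 ± 0.16 (adjusted p = 0.36), with pairs at −0.94, −0.12 and −0.15, and *MCCB* at −0.28 ± 0.09 (adjusted p = 0.26). AT1G10350, a DnaJ-type chaperone gene, was the 1 of 4 measured heat shock genes that was called, where 1.24% of all probe sets were, at −0.44 ± 0.10 (adjusted p = 0.12), and was called in 2 of the 9 fits that left out arrays. The only measured member of the SAUR cluster on chromosome 1, AT1G29450, lay near the lower end of the levels, at 3.03, 2.91 and 3.16 with Glc and 2.62, 2.57 and 2.53 with Xyl (0.46 ± 0.09, adjusted p = 0.097), and it rose.

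A list of 15 genes holds those measured by quantitative PCR, with the reference gene *TUB5* among them, and 14 had a named probe set here. On the arrays 4 of them rose, 6 fell and 4 were not called, where 1.24% of all probe sets were called. The published list holds 13 of the 14, so these were chosen from responses on these same arrays and their count is no independent evidence. The other is *TUB5*, not called here, which the study took as reference because its arrays showed no change. *MGT10* (AT5G22830), a magnesium transporter, fell 1.40-fold (6.90, 6.96 and 6.73 with Glc against 7.27, 7.57 and 7.22 with Xyl, adjusted p = 0.085). *URH1*, a uridine nucleosidase, lay just outside the threshold, with pairs at −0.32, −0.34 and −0.35 (adjusted p = 0.16). AT3G49160, a pyruvate kinase family gene, was at −0.38 ± 0.19 (adjusted p = 0.46). *TUB5*, the study's tubulin reference, was at 5.80, 6.97 and 3.94 with Glc and 5.84, 7.02 and 3.48 with Xyl, so its pairs differed by −0.04, −0.05 and 0.46.

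Fru and Suc were given to parallel flasks and their comparisons share the 3 Xyl arrays with that of Glc, so the differences from Xyl are set side by side and the sugars are compared directly. The median of the 125 rises with Glc was 0.53, against 0.28 with Fru and 0.27 with Suc, and that of the 158 falls was −0.49, against −0.34 and −0.31. Since the probe sets were chosen by their Glc value, Glc was bound to lie farther out. In the direct comparison Glc differed from Fru in 100 probe sets (0.44% of all, limma with the block, p under 0.002), 62 higher and 38 lower with Glc, and from Suc in 145 (0.637%), 83 higher and 62 lower. The smallest adjusted p was 0.39 against Fru, with 2040 probe sets at an unadjusted p under 0.05, and 0.032 against Suc, in 1 probe set. Of the 283 called against Xyl, 23 also differed from Fru, 25 from Suc and 5 from both. These comparisons share the 3 Glc arrays with Glc minus Xyl, so choosing probe sets by their Glc value itself favours such an overlap. The 5 are therefore not shown to be particular to Glc.

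*WRKY22* and AT3G57540 were 2 of the 5. *WRKY22* was at −0.67 with Glc, −0.20 with Fru and −0.17 with Suc (each minus Xyl), and Glc differed from Fru and from Suc (adjusted p = 0.39 and adjusted p = 0.16). AT3G57540 was at 0.89 with Glc, 0.25 with Fru and 0.16 with Suc (adjusted p = 0.4 against Fru and adjusted p = 0.16 against Suc). The other three were AT5G11780 (0.48 with Glc, 0.01 with Fru, 0.05 with Suc), AT3G55720 (0.52, 0.10 and −0.06 in the same order) and AT5G64190 (−0.45 with Glc), the last of which was named after its values were seen.

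The remaining genes named for a difference between sugars differed from 1 of them. AT5G04080 (0.69 with Glc, 0.18 with Fru), AT1G17090 (0.65 and 0.03), AT1G64380, an ERF-type transcription factor (0.54 and −0.22), *MT1C*, a metallothionein (0.37 and −0.05) and AT3G09000 (−0.41 and 0.05) differed from Fru, with an adjusted p of 0.39 for each. AT5G19880, a peroxidase (0.53 with Glc, −0.10 with Suc), and AT4G01140 (−0.53 and 0.04) differed from Suc (adjusted p = 0.16 and adjusted p = 0.16). None of these differences had an adjusted p under 0.05 in limma. Against Xyl *MT1C* was called in 0, AT3G09000 in 1, AT1G64380 in 2, and AT5G19880 and AT4G01140 each in 3 of the 9 fits that left out arrays.

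For several of the largest Glc differences neither Glc minus Fru nor Glc minus Suc was called, which does not show that the sugars act alike. *bZIP63* was at −0.81 with Glc, −0.70 with Fru and −0.72 with Suc, so that Glc minus Fru was −0.11 and Glc minus Suc −0.09, each ± 0.12 (SE). AT5G22920 was at −1.11, −0.95 and −0.83 in that order (adjusted p = 0.82 and adjusted p = 0.78). *MAPKKK19* was at 0.89 with Glc, 0.92 with Fru and 0.52 with Suc (adjusted p = 0.95 and adjusted p = 0.49). For the lipid genes Fru gave the higher point values, 2.37 for *MGD3*, 1.76 for *MGD2* and 1.05 for *SQD1*, beside 1.72, 1.37 and 0.90 with Glc and 0.76, 0.55 and 0.39 with Suc. Glc minus Fru was −0.66 ± 0.37, −0.39 ± 0.30 and −0.15 ± 0.20 for these 3 genes, and Glc minus Suc was 0.96 ± 0.37, 0.81 ± 0.30 and 0.51 ± 0.20, none of them called. The standard errors leave room for sizeable differences between the sugars.

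**Figure D4:**
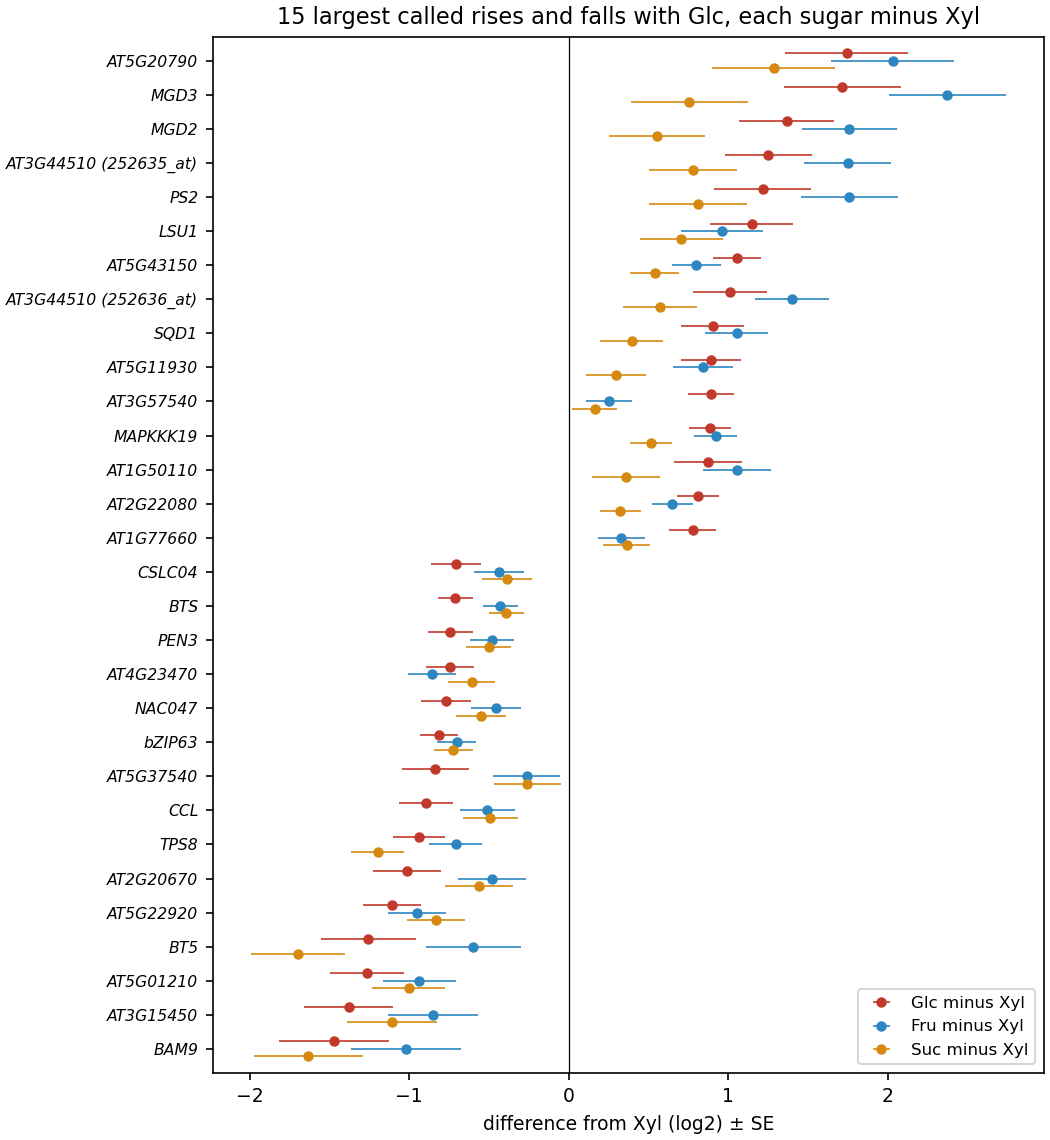
Difference from Xyl (log2 ± SE, horizontal axis) with Glc (red), Fru (blue) and Suc (orange) for the 15 largest called rises and falls with Glc among named probe sets, largest rise at the top. All 3 sugars share the same 3 Xyl arrays, the genes were chosen by their Glc value, and *bZIP63* lies at −0.81, −0.70 and −0.72 while AT3G57540 lies at 0.89, 0.25 and 0.16.

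Long genes were more frequent among the falls than among the rises. Of the 102 called falls with a gene length, 34 (33.3%) belonged to the longest 10% of genes, those over 4284 bp, against 10.0% of all named probe sets and 4 of 101 rises (3.96%). The median gene length was 3064 bp for the falls, 1817 bp for the rises and 2123 bp for all. Short genes were also dimmer, with a median level with Xyl of 2.93 in the shortest 10% and 4.91 in the longest 10%. Few probe sets with a mean level under 4 were called (0.31%), and the part of level in these shares was not tested. *TOR*, *SYD*, *UPL3*, *PKDM7D*, *BTS* and *PEN3*, all named above, are among the long ones, at 17748, 17067, 9078, 7226, 6597 and 5704 bp, whereas *bZIP63*, *BAM9* and AT3G15450 are not, at 1849, 2240 and 1141 bp. Of the falls outside the published list, 11 of 40 (27.5%) were in the longest 10%.

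The shift was not confined to the called genes. Over all named probe sets the median of Glc minus Xyl was −0.09, −0.12 and −0.04 in pairs 1, 2 and 3 for the longest 10% and 0.08, 0.06 and 0.03 for the shortest 10%. With the trend of each array's values with gene length removed, 164 probe sets with a gene length were called in place of 203, 82 in each direction, and 9.76% of the falls were then in the longest 10%. That correction itself draws the length classes together, so this share is largely set by it. The 3′ minus 5′ levels of the control probe sets, a sign of RNA quality, were 2.25, 1.92 and 2.02 with Glc and 2.05, 2.36 and 2.51 with Xyl for GAPDH, 4.45, 4.37 and 4.43 with Glc and 4.34, 4.42 and 4.33 with Xyl for actin, and 1.64, 1.73 and 1.91 with Glc and 1.64, 1.75 and 1.82 with Xyl for ubiquitin. The part of gene length or RNA quality in the falls of long genes was not tested.

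**Figure D5:**
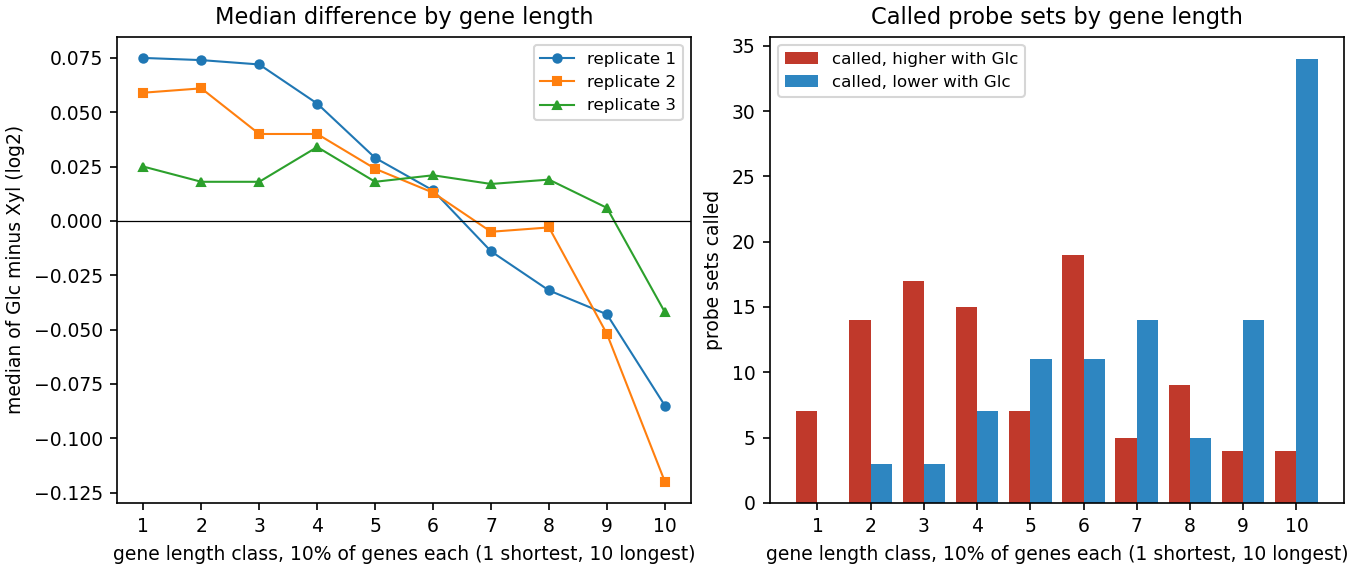
Left, median of Glc minus Xyl (log2) in each of 10 classes of gene length, 1 line per replicate. Right, number of called probe sets higher (red) and lower (blue) with Glc in each class. The 3 lines end at −0.09, −0.12 and −0.04 in the longest 10%, which holds 34 of the falls and 4 of the rises.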

How the data were processed

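The authors deposited log2 RMA values of 12 single-colour ATH1 arrays (background correction, quantile normalization and summarising of probes). Expression Console, RMA and limma are the tools that the submitters list, with versions not given in the sources used here. A second deposited table holds the authors' own fold changes and p-values and was not used. Samples were grouped by the sugar in the labels. Probe sets were named by the platform's annotation with a TAIR10.1 table, and by matching 290 entries of the study's published list through its ratios (tolerance 1e-05). Coordinates are left out because no assembly is stated for the arrays.

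Glc minus Xyl, Glc minus Fru and Glc minus Suc were tested in limma 3.58.1 (R 4.3.3) in 1 fit of 12 arrays blocked by replicate number, which leaves 6 residual degrees of freedom. Probe sets were called at the unadjusted p under 0.002 of the study's methods, which apply it to Student's t-test, with Benjamini-Hochberg adjusted p over 22746. Deviations from the group means correlated between same-numbered Glc and Xyl arrays (r = 0.783, 0.850 and 0.891), and the methods describe cell suspensions divided between flasks. The methods call the arrays biological replicates but do not say which flasks shared a culture. The p-values of the blocked fit measure only the spread of these samples that is left within replicate numbers. Differences between replicate numbers are taken out by the block and are not covered by them. The number of arrays, 3 for each sugar, limits the precision.

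The fit was tested on simulated data. Named genes were the 15 largest rises and falls of one sign in 3 pairs, the 5 smallest p in each direction, the study's qPCR genes, up to 4 called members of each gene list (otherwise the 2 farthest from 0) and up to 6 that differed from Fru and from Suc. Members, lists and tests were chosen with earlier results of these data known. Alternatives were no block, a random block, 6 arrays only, t-tests, array weights, a trended and robust variance, median centring, a minimum level of 5, a gene length correction and each array or replicate left out. A planned search of promoters for motifs was not run.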

Additional observations from a re-analysis of the deposited data

Results flagged for a closer look

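A probe set to which no gene could be given here had the only adjusted p under 0.05 in any comparison of Glc with another sugar. Its level was 9.17, 8.72 and 8.56 with Glc, 9.24 on average with Fru, 9.66 on average with Suc, and 9.78, 8.94 and 8.82 with Xyl. Glc minus Suc was −0.84 (adjusted p in limma = 0.032), with Glc at −0.36 and Suc at 0.48 relative to Xyl. Without the block it was not called, and with single arrays or replicates left out the difference lay between −0.93 and −0.74.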

How the results depend on the processing

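The number of calls moved widely with the test, also among the tests that keep the pairing. Against 283 probe sets (125 higher, 158 lower with Glc), 10 (4 and 6) were called with no replicate block, 25 (16 and 9) by an unpaired Student's t-test, 84 (43 and 41) by a t-test on the 3 differences, 125 (55 and 70) with the replicate as a random block and 169 (82 and 87) with the Glc and Xyl arrays alone. An adjusted p under 0.1 kept 67 (34 and 33) and one under 0.05 kept 0 (0 and 0). With single arrays or replicates left out the count was 96 to 301 in all, 43 to 134 higher and 53 to 167 lower. Centring arrays on their medians gave 155 higher and 135 lower. Glc minus Fru had 5 calls without the block in place of 100, and 53 to 97 with a replicate left out, and Glc minus Suc 13 in place of 145, and 41 to 298. The share of falls in the longest 10% of genes was 21.7% to 30.6% with a replicate left out. Without the block the share was 20.0%, but only 6 probe sets fell there, so that value says little. With the length trend removed the share was 9.76%, a value largely set by that correction. Of the named genes *TUB5* alone changed sign, to −0.045 without replicate 3 and −0.03 without the Glc array of replicate 3, the highest value being 0.21 without the Glc array of replicate 1. The cause of these changes was not tested. Probe sets with a mean level under 4 were rarely called, which limits what can be said of genes near the background.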

Other observations

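Other called genes, named after their values were seen, extend the description. Among the long genes that fell were *BIG* (17804 bp, −0.60, adjusted p = 0.077), a very large protein needed for auxin transport, *PRT6* (9075 bp, −0.41, adjusted p = 0.15), the ubiquitin ligase of the N-degron pathway, and *BSL1* (5844 bp, −0.38, adjusted p = 0.15), a phosphatase of brassinosteroid signalling. RNA metabolism genes that fell were *DCP1* (−0.61, adjusted p = 0.082), of mRNA decapping, and *SE* (−0.42, adjusted p = 0.11), of miRNA processing. *PAL2*, a phenylalanine ammonia lyase of phenylpropanoid synthesis, was at −0.41 (adjusted p = 0.15), and *WES1*, an enzyme that conjugates auxin to amino acids, at −0.70 (adjusted p = 0.086).

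Transcription factor genes among the rises included *TGA3* (0.61, adjusted p = 0.11), a bZIP factor of salicylic acid signalling, *WOX13* (0.56, adjusted p = 0.079), a homeodomain factor, and *ERF53* (0.60, adjusted p = 0.13). *CSD2*, the plastid copper/zinc superoxide dismutase, was at 0.41 (adjusted p = 0.15), *CML23*, a calmodulin-like protein, at 0.62 (adjusted p = 0.16) and *HBP5*, a haem-binding protein, at 0.69 (adjusted p = 0.077). None of these genes had an adjusted p under 0.05 in limma.

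Neighbouring genes were both called in 3 places of the reference order: *TOR* with AT1G50040 (−0.67 and −0.63), AT1G72230 with AT1G72240 (0.42 and 0.55), and AT3G15410 with AT3G15420 (−0.38 and 0.65), the last in opposite directions. With 1.24% of all probe sets called, some neighbours can both be called without any link between them. Whether 3 pairs exceed that number was not tested. Where a called gene had several probe sets, AT2G30600 (−0.61 and −0.56) and AT3G44510 were called on both, whereas AT4G17140 was called on 1 of 3 and AT4G23840 on 1 of 2, with the signs differing between probe sets.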
